A study of Mus musculus with 24 samples.

Results

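Sox8, Sox9 and Sox10 are the 3 genes of the mouse SoxE group, chosen by symbol from 21887 protein-coding genes on the main chromosomes. Their peaks were read at the gene with 5 kb on either side, and within 500 kb on either side, in the GRCm38 build. In CUT&RUN an antibody tethers a nuclease to its target in unfixed nuclei, and the DNA pieces cut loose around the target are sequenced. The study comprised 24 libraries of wild-type mouse retina, with no other allele or agent named in the labels, at 2 ages, postnatal day 2 (P2), when retinal cells are still being born, and postnatal day 17 (P17). At each age, 4 libraries used SOX8 antibodies (2 replicates each of a GeneTex and a Proteintech antibody), and 2 libraries each used antibodies to SOX9, H3K4me3, H3K27ac or a nonspecific IgG. The values below come from 8 peak lists, 1 for each target and age, and the 4 IgG libraries were not analysed here.

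SoxE proteins are transcription factors that bind DNA through an HMG box, and the members recognise closely similar short sequences. SOX9 and SOX8 are known in the retina from dividing progenitors and from Müller glia, the main glial cells of the tissue, and SOX9 is best known elsewhere as a regulator of cartilage and of sex determination. SOX10 is known from the neural crest, melanocytes, Schwann cells and oligodendrocytes. H3K4me3 is a histone mark found at active promoters, while H3K27ac is found at active enhancers as well as promoters. Sox9 is known for a very wide surrounding region without coding genes, in which distant enhancers lie.

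The lists held 2653 P2 SOX8, 5476 P2 SOX9, 2400 P17 SOX8 and 2855 P17 SOX9 peaks. For H3K4me3 they held 9134 peaks at P2 and 9629 at P17, and for H3K27ac 287845 at P2 and 29909 at P17. Each list gives positions only, with a score of 0 for every peak, and no list separates replicates or the 2 SOX8 antibodies. Replicate error is therefore unknown, no test between ages or targets was possible, and a peak is given as listed or not listed. Sequencing depth is unknown, and unequal depth or calling thresholds cannot be told apart from unequal binding. A bulk list also cannot tell fewer cells of a type from less signal per cell.

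Retina markers were read in the H3K4me3 lists at each gene with 5 kb flanks. Of 7 rod markers, 4 had a peak at P2 and 7 at P17, and of 8 Müller glia markers, 7 had one at P2 and 2 (Glul and Kcnj10) at P17. Of 7 retinal progenitor markers, 7 had one at P2 and 4 at P17. Of markers of cells from outside the neural retina, 2 of 6 oligodendrocyte genes had a P2 peak and 1 of 6 a P17 peak. For melanocytes and pigment epithelium the count was 2 of 7 at both ages, and for Schwann cells it was 2 of 4 at P2 and 1 of 4 at P17. The share of all protein-coding genes with an H3K4me3 peak was 49.3% at P2 and 50.9% at P17. In the SOX lists, P2 SOX9 was at 1 of 7 rod, 6 of 8 Müller glia and 7 of 7 progenitor markers, against 27.7% of all genes. P17 SOX9 was at 6 of 7, 1 of 8 and 2 of 7 in the same order, against 15.7%. P2 SOX8 was at 1, 5 and 5 of them, against 15.1%, and P17 SOX8 at 3, 0 and 1, against 13%.

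Promoter sequences under SOX peaks at or near the 3 genes are shown because the results turn on the peaks that cover them. They come from RefSeq, assembly GRCm38.p6, and each is the 250 bases before an annotated start, written 5′ to 3′ on the strand of its gene. The Sox8 promoter (chr17:25570687-25570936, minus strand) lay wholly under the P2 SOX8, SOX9, H3K4me3 and H3K27ac peaks. The promoter of the noncoding gene Gm33727, 43.3 kb below Sox8 (chr17:25518339-25518588, plus strand), lay under P2 SOX8, P2 SOX9, P2 H3K27ac and P17 SOX9 peaks. The promoter of the noncoding gene LOC115487747 (chr11:113173084-113173333, minus strand) lay in the coding-gene desert above Sox9, under P2 SOX9, P2 H3K27ac, P17 H3K4me3 and P17 H3K27ac peaks. The promoter of the noncoding gene Gm10863, which starts 1.58 kb beyond the high end of Sox10 (chr15:79165816-79166065, plus strand), lay under the P2 H3K27ac and P17 SOX9 peaks. Capitals mark ACAA or its reverse complement TTGT, the core of SOX recognition sequences, and the longer capitals in Gm10863 mark CTTTGT, the reverse complement of ACAAAG.
Sox8: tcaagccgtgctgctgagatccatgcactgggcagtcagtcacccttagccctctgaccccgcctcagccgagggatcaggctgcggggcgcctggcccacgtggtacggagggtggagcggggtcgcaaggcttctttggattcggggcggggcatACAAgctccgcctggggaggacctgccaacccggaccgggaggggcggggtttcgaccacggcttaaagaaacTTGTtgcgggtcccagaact
Gm33727: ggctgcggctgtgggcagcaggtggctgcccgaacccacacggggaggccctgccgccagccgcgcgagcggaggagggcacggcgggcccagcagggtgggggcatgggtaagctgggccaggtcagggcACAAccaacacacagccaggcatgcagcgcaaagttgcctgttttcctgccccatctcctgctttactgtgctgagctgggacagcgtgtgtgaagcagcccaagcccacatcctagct
LOC115487747: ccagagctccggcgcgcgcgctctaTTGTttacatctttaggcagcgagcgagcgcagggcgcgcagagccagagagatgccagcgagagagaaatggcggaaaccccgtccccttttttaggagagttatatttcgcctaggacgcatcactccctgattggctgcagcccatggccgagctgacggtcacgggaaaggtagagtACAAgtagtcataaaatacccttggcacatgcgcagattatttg
Gm10863: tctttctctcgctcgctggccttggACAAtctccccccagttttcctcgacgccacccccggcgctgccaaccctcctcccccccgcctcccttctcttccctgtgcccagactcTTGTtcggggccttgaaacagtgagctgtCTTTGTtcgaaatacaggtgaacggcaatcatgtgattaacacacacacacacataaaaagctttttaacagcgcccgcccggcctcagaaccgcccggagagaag

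The core ACAA was searched on both strands of these windows. A longer form, ACAAAG, was searched in the same way. So was the variant ACAATG. Every match of a longer form is also a match of the core. The Gm10863 window held ACAAAG once, on the reverse strand at bases 145 to 150, which is 106 bases before the start at the match's first base. The other 3 windows held neither ACAAAG nor ACAATG, which says only that these letters are not in them. All 4 windows held ACAA. Among 32807 promoter windows of the same length, 16.5% held ACAAAG, 10.7% ACAATG and 76.7% ACAA, so the matches describe the letters and single out no site. The Sox8 window was 65.6% G and C, against a median of 52.4% over all promoter windows. Of the 3 members, 1 had a promoter entry, and Sox9 and Sox10 had none.

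At the genes themselves the 3 members had different sets of peaks (the plot of peaks at each gene). Across 24 gene and list pairs, 10 had a peak, of which 8 were at P2 and 2 at P17. In the SOX lists, 4 of 12 pairs had one, namely SOX8 and SOX9 at Sox8 and SOX9 at Sox9 at P2, and SOX9 at Sox10 at P17. At P2 a SOX8 peak was listed at 1 of the 3 genes, against 15.1% of all protein-coding genes, and a SOX9 peak at 2 of 3, against 27.7%. At P17 the SOX8 list had 0 of 3, against 13%, and the SOX9 list 1 of 3, against 15.7%. A P2 SOX9 peak with no P17 SOX9 peak, as at Sox8 and Sox9, was listed at 16.4% of protein-coding genes. H3K4me3 was listed at 2 of 3 at P2 and 0 of 3 at P17, against 49.3% and 50.9% of all genes. H3K27ac was listed at 3 of 3 at P2 and 1 of 3 at P17, against 81.8% and 57% of all genes. The P17 H3K27ac count rests on a peak beside Sox8 that covers none of the gene. With 3 genes these counts describe the members and are no enrichment.

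**Figure D1:**
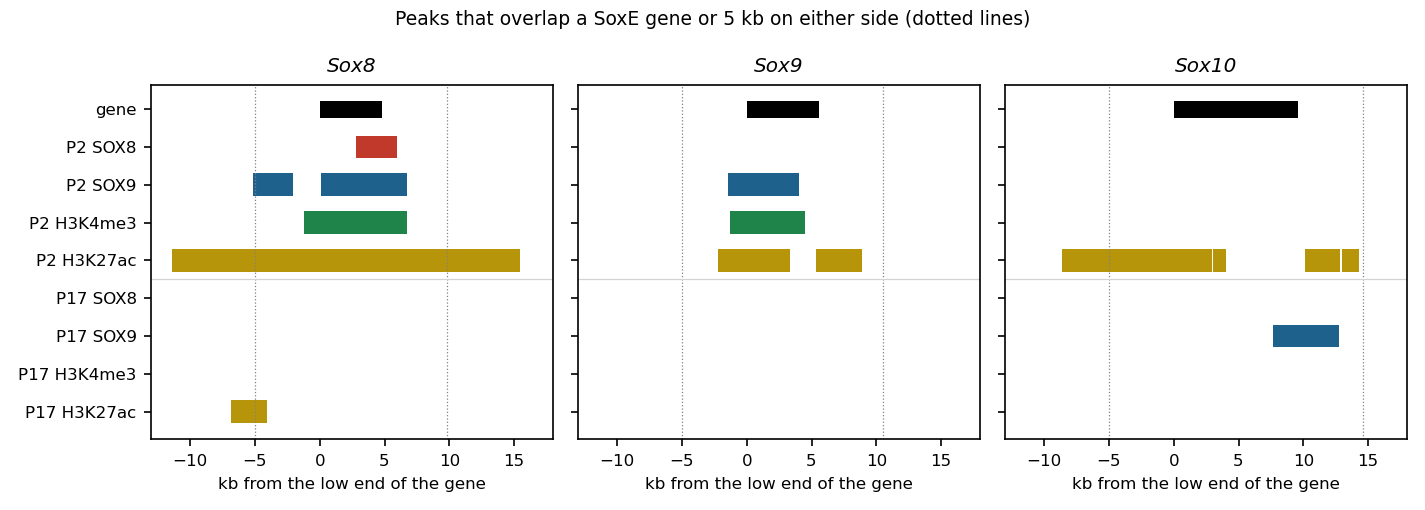
Peaks that overlap Sox8, Sox9 or Sox10 or 5 kb on either side, 1 panel per gene. The horizontal axis is kb from the low-coordinate end of the gene, rows are the gene and the 8 lists, bars are peaks to scale, and dotted lines mark the 5 kb flanks. Sox8 had bars in all 4 P2 rows and in the P17 H3K27ac row, Sox9 in 3 P2 rows and no P17 row, and Sox10 in the P2 H3K27ac and P17 SOX9 rows.

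Sox8 (gene ID 20681, chr17:25565893-25570686, 4794 bp, minus strand) was the member with peaks in most lists. It carried a P2 SOX8 peak of 3145 bp, a P2 SOX9 peak of 6595 bp and a P2 H3K4me3 peak of 7924 bp over its start, inside a P2 H3K27ac peak of 26799 bp. The P2 SOX8 peak (chr17:25568710-25571854) covered 41.2% of the gene at its start and reached 1168 bp beyond it. The P2 SOX9 peak (chr17:25565999-25572593) covered 97.8% of the gene, and the SOX8 peak lay wholly inside it. Both peaks were wide for their lists: 12.8% of P2 SOX8 peaks and 1.72% of P2 SOX9 peaks were wider. The SOX9 peak lay wholly inside the H3K4me3 peak (chr17:25564698-25572621), which covered all of the gene.

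Of all protein-coding genes, 14.5% had both a P2 SOX8 and a P2 SOX9 peak, as Sox8 did. The H3K27ac peak (chr17:25554517-25581315) was wider than all but 0.130% of its list and also reached into Lmf1, a lipase maturation factor gene whose near end lay 8.49 kb from Sox8. Cerox1, a long noncoding RNA gene whose near end lay 124 bp beyond the high end of Sox8, shared the P2 SOX and H3K4me3 peaks, so these peaks cannot be given to Sox8 alone. An ACAAAG match of the Cerox1 promoter window lay inside the Sox8 gene at chr17:25570630-25570635, under the P2 SOX8 peak.

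A further P2 SOX9 peak of 3088 bp (chr17:25560737-25563824) lay 2068 bp beyond the far end of Sox8, with no SOX8 peak. At P17 the SOX8, SOX9 and H3K4me3 lists had no peak at Sox8. What was listed at P17 was an H3K27ac peak of 2780 bp (chr17:25559011-25561790), 4102 bp beyond the far end, which shared 1054 bp with that further P2 SOX9 peak. Sox8 was therefore in the 3.4% of protein-coding genes with an H3K4me3 peak at P2 and none at P17. The nearest P17 peaks were 43.8 kb away for SOX9 and 54.5 kb away for SOX8. The P17 H3K27ac peak was the outermost peak inside the 5 kb flank, and the first outside it, at the near end of Lmf1, were a P2 H3K4me3 peak at 5.78 kb and a P2 SOX9 peak at 5788 bp. The P17 H3K27ac peak covered none of the gene and was not counted without flanks, by peak centre, after trimming to 500 bp or in the wider 50% of its list. With 10 kb flanks a P17 H3K4me3 peak, the one at Lmf1, was counted for Sox8.

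Sox9 (gene ID 20682, chr11:112782210-112787757, 5548 bp) had a P2 SOX9 peak and no P2 SOX8 peak. The SOX9 peak was 5467 bp wide (chr11:112780741-112786207), and 3.43% of its list was wider. It covered the low-coordinate end and 72.1% of the gene. Of its bases, 96.5% lay in the P2 H3K4me3 peak of 5787 bp (chr11:112780930-112786716) and 87.8% in a P2 H3K27ac peak of 5513 bp. A P2 SOX9 peak without a P2 SOX8 peak was listed at 13.3% of protein-coding genes. The nearest P2 SOX8 peak to Sox9 lay 72.9 kb away.

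None of the 4 P17 lists had a peak at Sox9. The P17 H3K4me3 list thus lacked Sox9 as well as Sox8, and the P17 H3K27ac list lacked Sox9 where the P2 list had it, as at 25.1% of protein-coding genes. H3K4me3 was at 7 of 8 Müller glia markers at P2 and 2 of 8 at P17, and at 7 of 7 retinal progenitor markers at P2 and 4 of 7 at P17. H3K27ac was at 8 of 8 and then 6 of 8 Müller glia markers, and at 7 of 7 and then 5 of 7 progenitor markers. The shares of all protein-coding genes were 49.3% and then 50.9% for H3K4me3, and 81.8% and then 57% for H3K27ac. The part of these markers' cells in the peaks at Sox8 and Sox9 was not tested.

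Sox10 (gene ID 20665, chr15:79154913-79164490, 9578 bp) had no H3K4me3 peak at either age and no SOX8 peak at either age. At P2 it had 4 H3K27ac peaks of 11571, 1024, 2687 and 1340 bp, the widest of which also reached into the neighbouring RNA polymerase subunit gene Polr2f. H3K27ac without H3K4me3 at P2 was common, at 32.6% of protein-coding genes. At P17 its peak was a SOX9 peak of 5139 bp (chr15:79162542-79167680), which covered the high-coordinate end and 20.3% of the gene and reached 3190 bp beyond it. This width was ordinary, since 53.5% of P17 SOX9 peaks were wider, and the peak was therefore not in the wider 50% of its list.

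That peak contained 2638 bp of the 2687 bp P2 H3K27ac peak, and the Gm10863 promoter printed above. No H3K4me3 or H3K27ac peak was listed at Sox10 at P17. A P17 SOX9 peak with neither P17 mark at the gene was listed at 0.768% of protein-coding genes. A P17 SOX9 peak with no other SOX peak was listed at 2.73%, and a P17 SOX9 peak with no P2 SOX9 peak at 4.35%. The nearest P17 marks lay at Polr2f, with H3K4me3 11.9 kb and H3K27ac 12.3 kb from Sox10.

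Around the genes the contrast was larger (the maps of peaks within 500 kb). Sox9 lies in a desert: from Gm11677, 1055.91 kb below it, to the zinc transporter gene Slc39a11, 457 kb above it, no other protein-coding gene is annotated. This span of 1518.55 kb was wider than that of 97.7% of 21837 genes, whose median was 77.8 kb. Sox8 lies in 81.9 kb between the somatostatin receptor gene Sstr5 and Lmf1, and Sox10 in 77.4 kb between Polr2f and Pick1. Within 500 kb there was 1 other coding gene at Sox9, against 48 at Sox8, 32 at Sox10 and a median of 16.

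**Figure D2:**
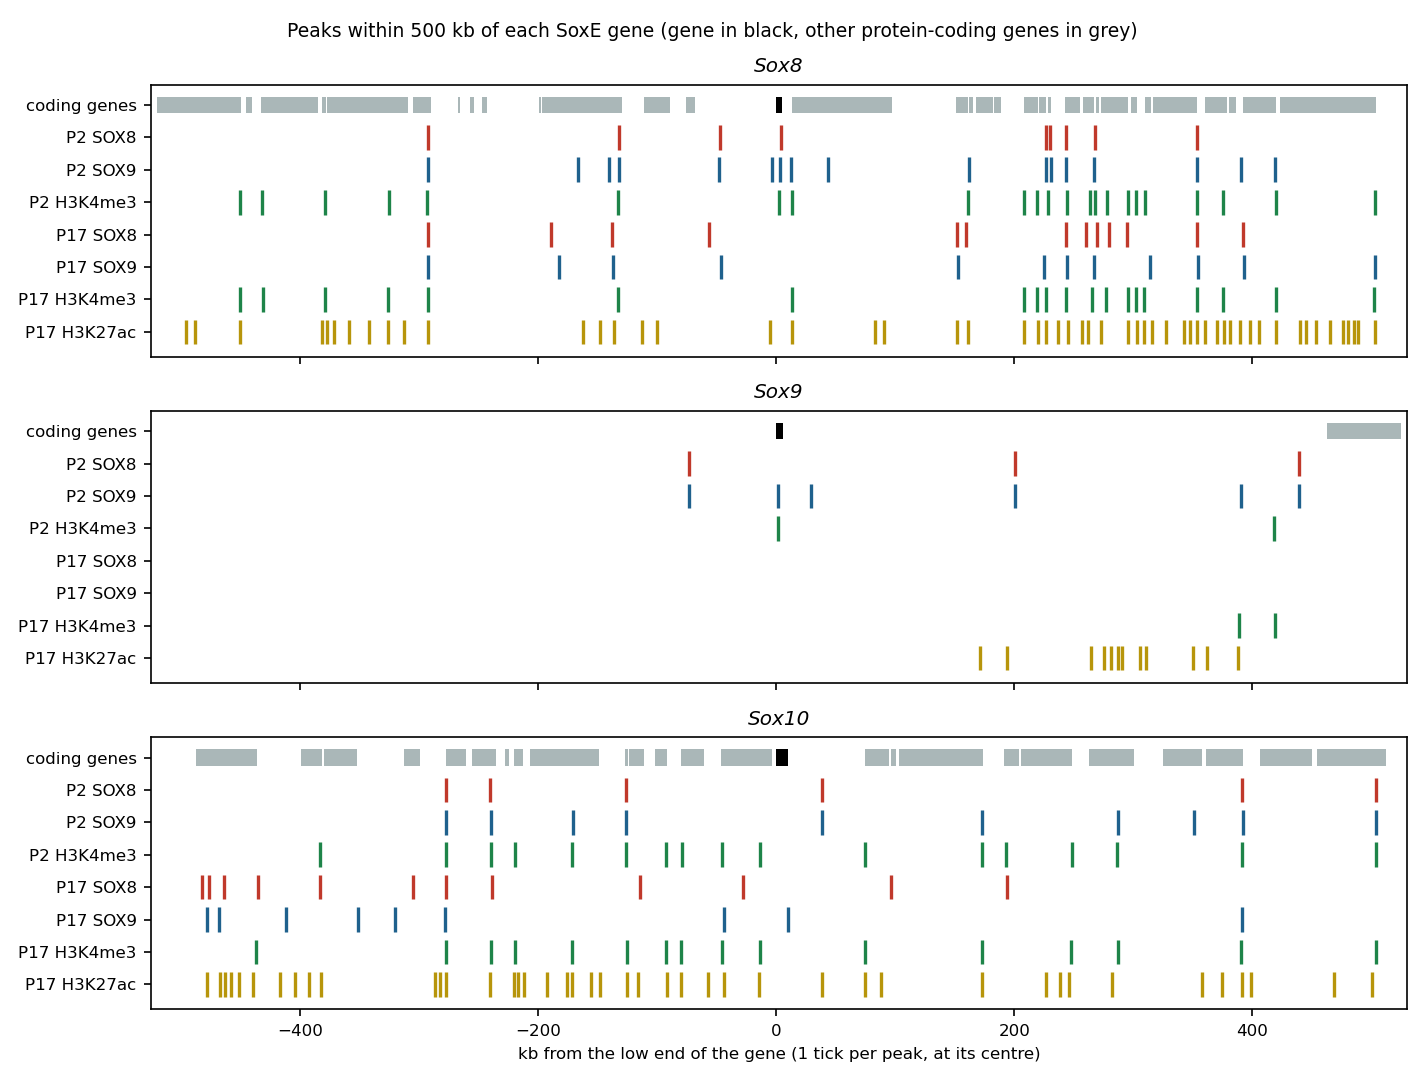
Peaks within 500 kb of Sox8, Sox9 and Sox10, 1 panel per gene, with kb from the low-coordinate end of the gene on the horizontal axis and 1 tick per peak at its centre. The gene is black and other protein-coding genes are grey, and P2 H3K27ac, with 154 to 206 peaks per window, is left out. Sox9 had 6 SOX9 and 3 SOX8 ticks at P2 and none at P17, with its P17 H3K27ac ticks all on the high side.

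In the Sox9 window the P2 SOX9 list had 6 peaks and the P2 SOX8 list 3, and both P17 SOX lists had 0. All 3 SOX8 peaks overlapped a SOX9 peak. The joint sites lay 71.3 kb below Sox9 (chr11:112706449-112710929), 193 kb above it (chr11:112981107-112984278) and 433 kb above it (chr11:113220296-113222876). The first lay in the long noncoding RNA gene BC006965, with its edge 427 bp from the high-coordinate end of that gene, and the other two had no annotated gene within 1 kb. SOX9 alone was listed at Sox9 itself, at the noncoding gene Gm30562 (chr11:112810606-112812569, 22.8 kb above) and at the noncoding genes 2610035D17Rik and LOC115487747 (chr11:113171959-113173682, 384 kb above).

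Of these 6 SOX9 peaks, 5 had no coding gene within 1 kb, against 9.72% of the P2 SOX9 list. Outside H3K4me3 lay 3 of 3 SOX8 and 5 of 6 SOX9 peaks, whereas 90.1% of the P2 SOX8 list and 79.8% of the P2 SOX9 list overlapped that mark. The window holds only 1 other coding gene and 2 P2 H3K4me3 peaks. The part of these low numbers in both contrasts was not tested. All 9 peaks lay on P2 H3K27ac, as did 99.7% and 99.4% of their whole lists. P2 H3K27ac covered 54.8% of this window.

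The nearest P17 SOX8 peak to Sox9 was 860 kb away, at Slc39a11 and Cog1, and the nearest P17 SOX9 peak 894 kb away. A window without a P17 SOX8 or SOX9 peak was found for 33.4% of protein-coding genes. A window with both SOX lists at P2 and neither at P17 was found for 7.76%. The Sox9 window has 1 other coding gene, against a median of 16 over all genes. Of the whole P17 lists, 6.04% of SOX8 and 6.23% of SOX9 peaks had no coding gene within 1 kb. The part of gene density in the absence of P17 SOX peaks around Sox9 was not tested. Windows held a P2 SOX8 peak at 68.7%, a P2 SOX9 peak at 81.4%, a P17 SOX8 peak at 58.3% and a P17 SOX9 peak at 62.5% of genes. At P2, 89.9% of windows held H3K4me3 and 97.3% H3K27ac, and at P17, 90.4% and 91.3%.

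H3K27ac in the Sox9 window went from 206 peaks over 551 kb at P2 to 12 peaks over 51.3 kb at P17. The P2 peaks lay on both sides of the gene, with 108 below and 96 above it. More P2 H3K27ac peaks were listed around 4.40% of genes. The P17 count was ordinary: the median over all genes was 19 peaks, and 33.7% of genes had fewer than Sox9. The 12 P17 peaks all lay above Sox9, at 164 kb or farther, and 10 of them touched 2610035D17Rik or 1 kb around it. All 12 overlapped a P2 peak, as did 88.2% of the whole P17 list.

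Of the 206 P2 peaks, 9 (4.37%) overlapped a P17 peak, against 14.7% of the whole list. The P2 H3K27ac list had 9.62 times as many peaks as the P17 list, and in the Sox9 window the ratio was 17.2. Corresponding ratios were 2.80 around Sox8 and 3.98 around Sox10. With the P2 list limited to as many of its widest peaks as the P17 list holds, P2 had 42 peaks around Sox9 against 12 at P17, 55 against 55 around Sox8 and 39 against 43 around Sox10. The H3K4me3 lists had 2 peaks each in the Sox9 window, of which 1 P2 peak was at the gene. The P17 list had instead a peak of 5295 bp (chr11:113168718-113174012) over the SOX9 site at LOC115487747, where P2 had H3K27ac but no H3K4me3.

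**Figure D3:**
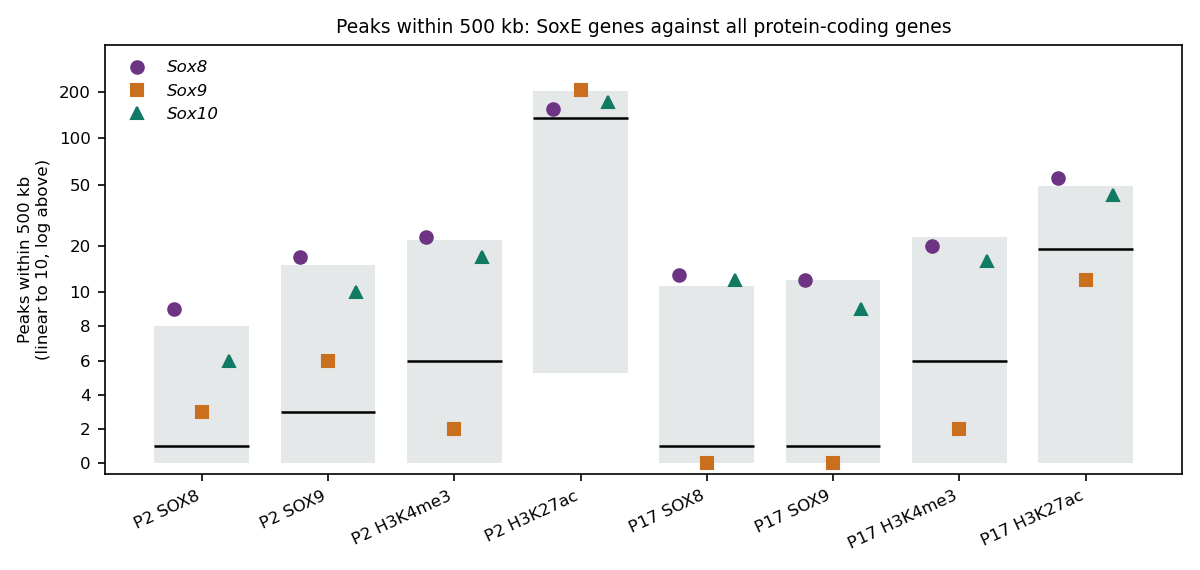
Number of peaks within 500 kb of Sox8, Sox9 and Sox10 in each list, on an axis that is linear to 10 and logarithmic above. The black line is the median and the grey band the middle 90% of all 21887 protein-coding genes. Sox9 was at 0 in both P17 SOX lists and near the top of the band for P2 H3K27ac, and Sox8 was at or above the top of the band in 6 of the 8 lists.

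The Sox8 window held 9 P2 SOX8, 17 P2 SOX9, 13 P17 SOX8 and 12 P17 SOX9 peaks, against medians of 1, 3, 1 and 1. Fewer peaks were listed around 95.3%, 96.6%, 96.7% and 94.3% of genes respectively. The 48 coding genes of the window go with these counts, and their part in them was not tested. The 4 SOX lists merged into 23 sites around Sox8, of which 8 were listed at P2 alone, 9 at both ages and 6 at P17 alone.

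Of the 23 sites, 4 were in all 4 lists, against 12.7% of the sites of the whole lists, and 3 had no coding gene within 1 kb. The 3 include the further SOX9 peak below Sox8 and a P17 SOX8 peak 54.5 kb away. The remaining one, 43.8 kb below Sox8 (chr17:25515195-25522072) at Gm33727, was in the P2 SOX8, P2 SOX9 and P17 SOX9 lists. It was the nearest site to Sox8 that a P17 SOX list shared. It had P2 H3K27ac, no H3K4me3 at either age and no P17 H3K27ac.

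The Sox10 window held 6 P2 SOX8, 10 P2 SOX9, 12 P17 SOX8 and 9 P17 SOX9 peaks. Fewer peaks were listed around 86.7%, 84.2%, 95.9% and 89.6% of genes respectively. The window has 32 other coding genes, against a median of 16 over all genes, and their part in these counts was not tested. Of the 12 P17 SOX8 peaks, 0 lay without a coding gene within 1 kb, against 6.04% of the whole list. The 4 SOX lists merged into 24 sites around Sox10. Of these, 7 were listed at P2 alone, 3 at both ages and 14 at P17 alone. Sites at P17 alone were 6 of 23 around Sox8 and 0 of 6 around Sox9. Merging the whole SOX lists gave 7268 sites, of which 47.5% were listed at P2 alone, 29.2% at both ages and 23.4% at P17 alone. SOX8 went from 6 to 12 peaks around Sox10, with a ratio of P2 to P17 of 0.50, while that of the whole SOX8 lists was 1.11. Around Sox8 it went from 9 to 13, a ratio of 0.69, and around Sox9 from 3 to 0. Of the 12 peaks around Sox10, 1 was 270 bp wide (chr15:78690575-78690844), against a list median of 2911.5 bp. The P17 peaks lay mostly below Sox10, with 10 of 12 for SOX8 and 7 of 9 for SOX9.

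Promoter marking was uncommon among them. On P17 H3K4me3 lay 3 of 12 P17 SOX8 and 3 of 9 P17 SOX9 peaks, against 69.7% and 66.5% of the whole lists. With neither P17 mark were 5 of the 12 and 3 of the 9, against 13.9% of each list. The P17 SOX9 peak at Sox10 was among them. The nearest joint P2 site to Sox10, in Gm10863 26961 bp above it (chr15:79191452-79195354), had SOX8 and SOX9 at P2, no P17 SOX peak and H3K27ac at both ages.

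Across the 3 windows all 18 P2 SOX8 peaks overlapped a P2 SOX9 peak, against 94.5% of the whole list. Of 33 P2 SOX9 peaks, 18 overlapped a P2 SOX8 peak (54.5%, list 45.5%). At P17, 14 of 25 SOX8 peaks overlapped SOX9 (56.0%, list 59.0%) and 11 of 21 SOX9 peaks overlapped SOX8 (52.4%, list 47.5%). The pooled P17 shares average windows that differed. By gene, 10 of 13 P17 SOX8 peaks overlapped SOX9 around Sox8 (76.9%) and 4 of 12 around Sox10 (33.3%). Of these 4, 1 was the 270 bp peak, which met only the end of a SOX9 peak (chr15:78683742-78690586). For P17 SOX9 on SOX8 the counts were 8 of 12 (66.7%) and 3 of 9 (33.3%). Between ages, 6 of 18 P2 SOX8 peaks overlapped a P17 SOX8 peak, against 45.8% of the list.

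Within the Sox family, 16 further genes were read in the same way (the plot of Sox genes by list). The SoxD genes Sox5, Sox6 and Sox13 encode partners of SOX9 in cartilage. All 3 had P2 H3K4me3 and P2 H3K27ac, 1 (Sox6) had P2 SOX9, 0 had P2 SOX8 and 0 had P17 SOX9. Sox13 had a P17 SOX8 peak of 4622 bp and was the only listed Sox gene with one. At P17, 1 (Sox5) had H3K4me3 and 2 had H3K27ac. Over all genes, the P2 shares were 15.1% for SOX8, 27.7% for SOX9, 49.3% for H3K4me3 and 81.8% for H3K27ac. The P17 shares were 13%, 15.7%, 50.9% and 57% in the same order.

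Of 13 other Sox genes, 3 had a P2 SOX8 peak (Sox2, Sox11 and Sox12), and these and Sox4 had a P2 SOX9 peak. Sox2 is a regulator of retinal progenitors and Müller glia, and Sox4, Sox11 and Sox12 form the SoxC group. In these 13, P2 H3K4me3 was at 6 (46.2%), P2 H3K27ac at 10 (76.9%), P17 H3K4me3 at 4 (30.8%) and P17 H3K27ac at 4 (30.8%). Over all genes these shares were 49.3%, 81.8%, 50.9% and 57% in the same order. The P2 SOX8 share was 23.1%, against 15.1% of all genes, and the P2 SOX9 share 30.8%, against 27.7%. P17 SOX8 was at 0, against 13% of all genes, and P17 SOX9 at 1 gene, against 15.7%. That gene was Sox12, with a peak of 4730 bp where P2 had 5488 bp for SOX9 and 3739 bp for SOX8. Over all 19 listed Sox genes, H3K4me3 was at 11 at P2 and 5 at P17, while in all genes the share was 49.3% and 50.9%.

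**Figure D4:**
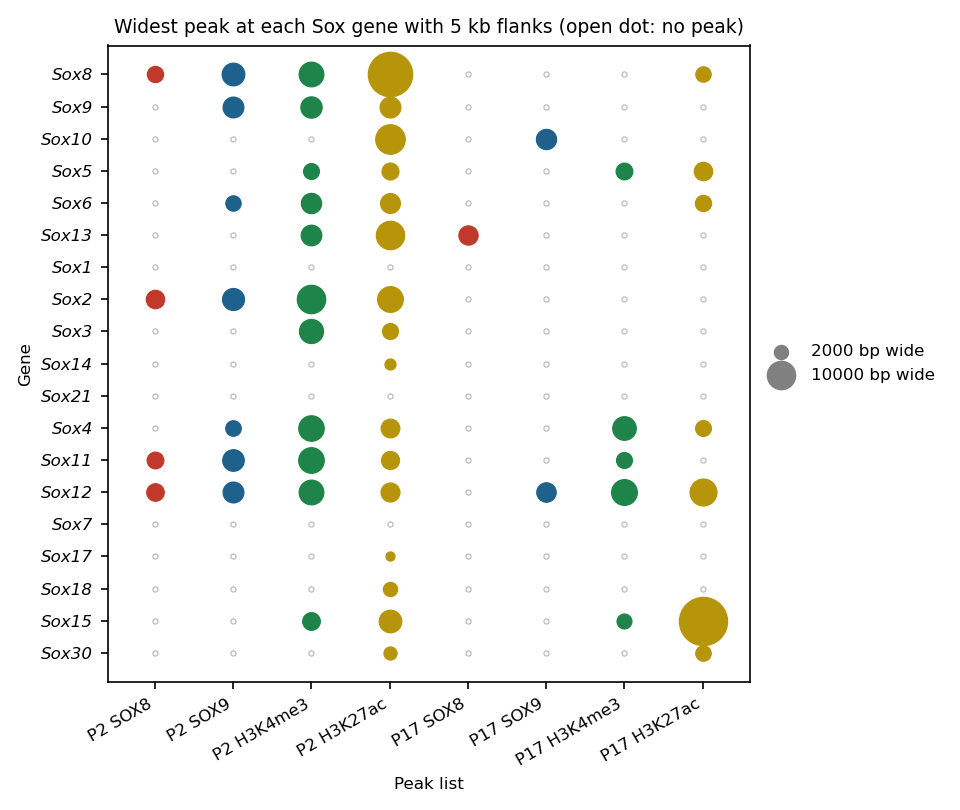
Widest peak of each list at 19 Sox genes with 5 kb flanks, with genes on the vertical axis and lists on the horizontal axis. Dot area grows with peak width in bp and open dots mark no peak. Sox8 and Sox9 had filled H3K4me3 dots at P2 and open ones at P17, and the P17 SOX9 column was filled at Sox10 and Sox12.

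Likeness between genes was measured over the 8 lists as the mean absolute difference in log2(covered bases + 100 bp) at the gene with 5 kb flanks. A value of 0 means equal coverage. Only genes with a peak in exactly the same lists as the member were ranked, so genes with other sets were not compared. Lists without a peak add 0 to the mean, so values of different members are not comparable. Most like Sox8 were Tgif2 at 0.42, Lfng at 0.42, Id3 at 0.44, Gli1 at 0.52 and Tril at 0.57, and 26 genes (0.119%) shared its set of lists. Lfng modifies Notch receptors, Id3 inhibits bHLH factors and Gli1 is a Hedgehog pathway factor. Most like Sox9 were Dll4, a Notch ligand, at 0.10, Vax1, an eye homeobox gene, at 0.12, E2f8 at 0.13, Cyp1b1 at 0.14 and the chemokine receptor gene Cxcr4 at 0.14, and 74 genes (0.338%) shared its set. Most like Sox10 were Ccdc188 at 0.0025, Lrrc32 at 0.014, Csrnp1 at 0.024, Hk3 at 0.031 and Bpifb5 at 0.035, and 97 genes (0.443%) shared its set.

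Known targets of SoxE proteins were read in the same lists. Of 9 glial genes tied to SoxE factors, 7 had a P2 SOX9 peak, 3 a P2 SOX8 peak, and 2 each a P17 SOX8 and a P17 SOX9 peak. These were 77.8%, 33.3%, 22.2% and 22.2% of the list, against 27.7%, 15.1%, 13% and 15.7% of all genes. The 2 genes at P17 were Hes5, a Notch effector, and Cspg4, the NG2 proteoglycan gene. Hes5 was in all 4 SOX lists, with peaks of 7140 bp for SOX8 and 7697 bp for SOX9 at P2 and of 1492 bp and 9342 bp at P17. Cspg4 had 510 bp for SOX8 and 7190 bp for SOX9 at P17, in peaks that did not overlap, and no SOX peak at P2. In these 9 genes H3K4me3 was at 7 at P2 and 4 at P17, against 49.3% and 50.9% of all genes. H3K27ac was at 9 at P2 and 5 at P17, against 81.8% and 57%.

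Of 7 cartilage targets of SOX9, 1 had a P2 SOX8 and a P2 SOX9 peak, 2 had a P17 SOX8 and 3 a P17 SOX9 peak. These were 14.3% for each factor at P2 and 28.6% and 42.9% at P17, against 15.1%, 27.7%, 13% and 15.7% of all genes in the same order. Col2a1, the type II collagen gene, had P2 peaks of both factors and a P17 SOX9 peak of 6444 bp. Col11a2 and Comp, a collagen and a cartilage matrix gene, had P17 peaks of both factors and none at P2. The SOX8 and SOX9 peaks at Col11a2 did not overlap, while the SOX8 peak at Comp lay inside a SOX9 peak. In these 7 genes H3K4me3 was at 3 at P2 and 1 at P17 (42.9% and 14.3%), against 49.3% and 50.9% of all genes. H3K27ac was at 7 at P2 and 3 at P17 (100% and 42.9%), against 81.8% and 57%.

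Of 11 neural crest, melanocyte and myelin targets of SOX10, none had a SOX8 peak at either age, 2 had a P2 SOX9 peak (Erbb3 and Myrf) and 1 a P17 SOX9 peak. Myrf, a regulator of myelin genes, had 3 P17 SOX9 peaks of 6971, 5289 and 8157 bp. These 11 genes had H3K4me3 at 4 at each age (36.4%), against 49.3% of all genes at P2 and 50.9% at P17. H3K27ac was at 10 at P2 and 6 at P17 (90.9% and 54.5%), against 81.8% and 57%. For SOX8, the share of all genes was 15.1% at P2 and 13% at P17. The P2 SOX9 share was 18.2%, against 27.7% of all genes, and the P17 SOX9 share 9.09%, against 15.7%.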

How the data were processed

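Peak lists from CUT&RUN of wild-type mouse retina were analysed. Bowtie2 and SEACR are named as tools and GRCm38 as the genome build, per the submitters' processing notes, with no version or role. How libraries were combined, the calling threshold and the use of IgG are not given in the sources used here. The authors deposited chromosome, start and end for each peak, and the deposited score was 0 throughout. Starts were counted from 1.

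Genes came from RefSeq GRCm38.p6, the build of the lists, which gives the ends of genes but no exons. A peak counted for a gene from 1 bp of overlap with it or with 5 kb flanks, and a window reached 500 kb beyond each end. Percentages over all genes are shares of 21887 protein-coding genes. Overlapping peaks were merged into sites. The overlap procedure was checked on simulated data. No test was run, since no list holds replicate values. Python 3.11.15, pandas 2.3.3 and numpy 2.4.6 were used.

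Named genes were the members, the 10 nearest coding genes with a SOX peak in each window, the coding neighbours, up to 4 genes per list with a SOX peak at P17 or both ages, and the 5 most alike genes. Other genes named (Cog1, Metrn, Antkmt, Elfn2, Sox6, Erbb3, noncoding genes) and P2-only family members were chosen after their values were seen. The members and lists were chosen with earlier results of these data known.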

Additional observations from a re-analysis of the deposited data

How the results depend on the processing

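No paired analysis was possible because no list holds values per replicate, so leaving out a replicate or blocking on its number, and a threshold on the score (0 throughout), were not run. Flanks of 50 kb gave 18 of 24 gene and list pairs with a peak in place of 10, and 8 of 12 SOX pairs in place of 4. The 97 SOX peaks in the 3 windows became 51 at 250 kb, 164 at 1000 kb, 20 between the nearest coding genes and 21 outside other coding genes and 1 kb around them. The 0 P17 SOX peaks around Sox9 became 4 at 1000 kb, the only alternative run that gave any. The 206 P2 H3K27ac peaks around Sox9 became 123 at 250 kb, 358 at 1000 kb, 136 in the wider 50% of the list and 42 when the list was limited to its widest peaks in the number of the P17 list. Peaks trimmed to 500 bp left 5 of 25 P17 SOX8 peaks on SOX9 in place of 14. The share of genes with a P2 SOX9 peak, 27.7%, was 29.2% on autosomes and 25.6% in the tenth of gene length that holds Sox8 and Sox9. With covered share as the measure, 3 of the 5 genes most like Sox9 and 1 of the 5 most like Sox10 stayed on the list. Of these results' other values, 23 counts stayed within 1.5 times the main count and 1 share within its counting interval. For single genes and lists, 190 counts stayed within 1.5 times, 84 were lower and 42 higher, and of shares over all genes 4 stayed within their interval, 8 were lower and 16 higher. Among these, the P17 H3K27ac peak at Sox8 went to 0 without flanks, by peak centre, after trimming and in the wider 50%, where the P17 SOX9 peak at Sox10 also went to 0. Unknown depth limits every absence of a peak.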

Other observations

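Coding genes in the same windows also had SOX peaks within 5 kb, and neighbouring genes shared some of them. Metrn, which encodes the glial factor meteorin, lies 224 kb above Sox8, and with 5 kb flanks it had 2 peaks each for P2 SOX8 and P2 SOX9 and 1 for P17 SOX9. Its neighbours Ccdc78 and Antkmt had the same counts, and 1 of the P2 SOX8 peaks (chr17:25791552-25793264) had Antkmt but not Metrn within 1 kb. The site with Metrn alone within 1 kb (chr17:25794881-25798463) was in both P2 SOX lists with P2 H3K4me3, and in none of the 4 P17 lists. Gng13, a G protein subunit gene 146 kb above Sox8, had 2 P17 SOX8 peaks and 1 P17 SOX9 peak, and none at P2. Its neighbour Chtf18 had the same P17 counts. Of the SOX8 peaks, 1 (chr17:25720176-25730050) had Chtf18 and Rpusd1 but not Gng13 within 1 kb. Cacna1h, a T-type calcium channel gene 130 kb below Sox8, had 1 P2 SOX8, 3 P2 SOX9, 2 P17 SOX8 and 2 P17 SOX9 peaks.

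Around Sox10, Elfn2, a gene of a synaptic leucine-rich repeat protein 436 kb below it, had 4 P17 SOX8 and 2 P17 SOX9 peaks and none at P2. Of the 4 SOX8 peaks, 1 was only 270 bp wide (chr15:78690575-78690844). Slc16a8, the monocarboxylate transporter gene of the pigment epithelium, 86.5 kb above Sox10, shared a P17 SOX8 peak with Pick1 (chr15:79248971-79253430), which had neither P17 mark. Maff, a small MAF factor gene 182 kb above Sox10, had a P17 SOX8 peak, with H3K4me3 listed at P2 and not at P17.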
